A study of Mus musculus with 4 samples.

Results

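The aquaporins are a family of membrane channels for water and small uncharged solutes, and 10 mouse members (Aqp1 to Aqp9 and Aqp11) were examined among 19938 genes with a probe set of their own. They were matched by gene symbol, and a gene's probe set was to be chosen by the highest mean over all arrays where it had several. Each of the 10 genes had 1 probe set with its symbol alone and none shared with another gene, so this choice was never needed. The family itself was taken up with earlier results of this comparison known, and its test values therefore state how a difference compares with the spread between cultures and are no independent evidence.

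Transcripts were profiled with 4 Mouse Gene 1.0 ST arrays (Affymetrix), 2 from duplicate cultures of MEL cells and 2 from duplicate cultures of ES-EP, called A and B. MEL is a murine erythroleukemia line of Friend virus origin that is blocked in erythroid differentiation, here the clone DS19 with a stably introduced fusion of Gata-1 to the ligand-binding domain of the estrogen receptor (ER), grown in DMEM with serum, L-glutamine and puromycin. ES-EP are erythroid progenitors that are not transformed, were obtained from embryonic stem (ES) cells and have no fusion gene named in their labels, and they were maintained in StemPro34 medium with Epogen (erythropoietin), IGF-1, dexamethasone, stem cell factor and mercaptoethanol. Both were proliferating, and the effects of cell type, fusion gene and medium cannot be told apart. Signals are log2 RMA values, so a difference of 1 is 2-fold, and each MEL or ES-EP group is 2 cultures of a single line or derivation.

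Aquaporins form tetramers in which every subunit has its own pore. The classical water channels pass little besides water, the aquaglyceroporins also pass glycerol and urea, and Aqp11 belongs to a divergent branch found mainly on intracellular membranes. Red cells carry Aqp1 as their main water channel, and in human it bears the Colton blood group antigens. Glycerol enters red cells through an aquaglyceroporin that differs by species, Aqp9 in mouse and AQP3 in human, where AQP3 bears the GIL blood group antigen.

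The proximal promoters of the 4 genes with the widest differences between MEL and ES-EP are shown because these genes carry the result that follows, 2 higher in MEL (Aqp9 and Aqp1) and 2 higher in ES-EP (Aqp3 and Aqp11). Each is the 250 bases before the start of a RefSeq transcript in GRCm38.p6, at chr9:71163290-71163539 on the minus strand for Aqp9, chr6:55336049-55336298 on the plus strand for Aqp1, chr4:41098184-41098433 on the minus strand for Aqp3 and chr7:97738248-97738497 on the minus strand for Aqp11. Capitals mark exact matches, on either strand, to 4 short motifs: GATAA (bound by GATA factors), AGGAAG (ETS factors such as PU.1), CACCC (Krüppel-like factors) and TGTTCT (glucocorticoid receptor).
Aqp9: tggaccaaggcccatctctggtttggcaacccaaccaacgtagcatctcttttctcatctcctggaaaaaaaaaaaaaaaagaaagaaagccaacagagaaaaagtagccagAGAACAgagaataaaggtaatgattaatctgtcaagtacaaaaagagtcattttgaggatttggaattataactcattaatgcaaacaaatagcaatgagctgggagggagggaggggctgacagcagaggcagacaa
Aqp1: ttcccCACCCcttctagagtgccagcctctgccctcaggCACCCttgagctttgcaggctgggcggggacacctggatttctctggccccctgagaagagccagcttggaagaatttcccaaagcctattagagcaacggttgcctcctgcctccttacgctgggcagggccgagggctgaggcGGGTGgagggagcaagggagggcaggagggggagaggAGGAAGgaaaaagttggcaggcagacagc
Aqp3: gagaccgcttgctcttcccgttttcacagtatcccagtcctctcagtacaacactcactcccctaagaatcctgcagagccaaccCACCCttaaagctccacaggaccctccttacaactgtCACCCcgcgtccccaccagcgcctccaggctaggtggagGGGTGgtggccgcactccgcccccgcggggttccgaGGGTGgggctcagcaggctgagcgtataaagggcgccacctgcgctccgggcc
Aqp11: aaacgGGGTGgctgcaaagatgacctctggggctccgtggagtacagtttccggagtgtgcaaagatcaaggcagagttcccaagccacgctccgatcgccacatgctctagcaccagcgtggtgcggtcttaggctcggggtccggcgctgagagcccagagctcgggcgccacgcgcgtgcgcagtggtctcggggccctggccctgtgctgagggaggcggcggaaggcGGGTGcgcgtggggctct

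No matches overlapped in these windows. CACCC matched 3 times before Aqp1, 4 times before Aqp3, 2 times before Aqp11 and 0 times before Aqp9, and it occurred in 52.0% of 32851 windows of the same length over all genes. AGGAAG matched 1 time, 29 bases before the start of Aqp1, and occurred in 29.5% of all windows. TGTTCT matched 1 time before Aqp9, as AGAACA 138 bases before the start, and occurred in 16.1%. GATAA occurred in 22.6% of all windows and in none of the 4 shown. A second RefSeq start of Aqp9 had a window with 1 GATAA match (chr9:71162634-71162883). Both Aqp9 windows lie inside the annotated gene (chr9:71110659-71167849), and the bases before the start of the whole gene were not scanned. G and C made up 40.4% of the Aqp9 window, 62.0% of that of Aqp1, 64.0% of that of Aqp3 and 67.2% of that of Aqp11. A match is only a run of letters, and binding was not measured here.

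Members of the family differed in both directions. In MEL, Aqp9 was 34.3-fold and Aqp1 3.77-fold higher than in ES-EP, whereas Aqp3 was 13.2-fold, Aqp11 4.91-fold and Aqp8 2.05-fold lower. The folds of Aqp9 and Aqp8 are inexact because the signal was at background (the level of olfactory receptor genes) in ES-EP for Aqp9 and in MEL for Aqp8, and that of Aqp3 because its MEL signal lay just above background. The other 5 members differed by less than 2-fold. Of the 10 members 8 passed the limma test (adjusted p at most 0.05, Benjamini-Hochberg over all genes), against 63.8% of all genes. Of these, 3 were higher in MEL (20.5% of all genes) and 5 were lower (43.2% of all genes). After the arrays were rescaled, 3 members were called higher in MEL and 4 lower (quantile normalization), or 3 higher and 3 lower (centring on medians, and also cyclic loess). Of all 19938 genes 5344 were then called higher and 5974 lower (quantile normalization). The counts were 5757 higher and 5644 lower after centring on medians, and 5676 higher and 5460 lower after cyclic loess. Calls of at least 2-fold were made for 5 members, against 10.0% of all genes, 2 of them higher in MEL (5.72% of all genes) and 3 lower (4.27%). After each rescaling such calls were made for 4 members, without Aqp8. Of all 19938 genes they were made for 2008 (quantile normalization), 2072 (centring on medians) and 2046 (cyclic loess), against 1993 as deposited. The arrays of MEL and ES-EP did not overlap for 9 members, against 81.8% of all genes. The median difference, MEL minus ES-EP, was -0.24 over the members and -0.15 over all genes, and the median size of the difference without its sign was 0.71 over the members and 0.32 over all genes.

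The 95th percentile of 1027 olfactory receptor genes, which encode receptors of nasal sensory neurons, was 5.19 in MEL and 5.56 in ES-EP and served as a guide to background. Against these levels 7 members lay above background in MEL, 6 in ES-EP and 5 in both. The 7 include Aqp7, whose MEL mean of 5.21 was practically at the level, with MEL replicate A (5.16) below it. Probe sets differ in brightness, so levels were not ranked between genes. In bulk RNA a lower signal from every cell and fewer cells with the transcript cannot be told apart.

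**Figure D1:**
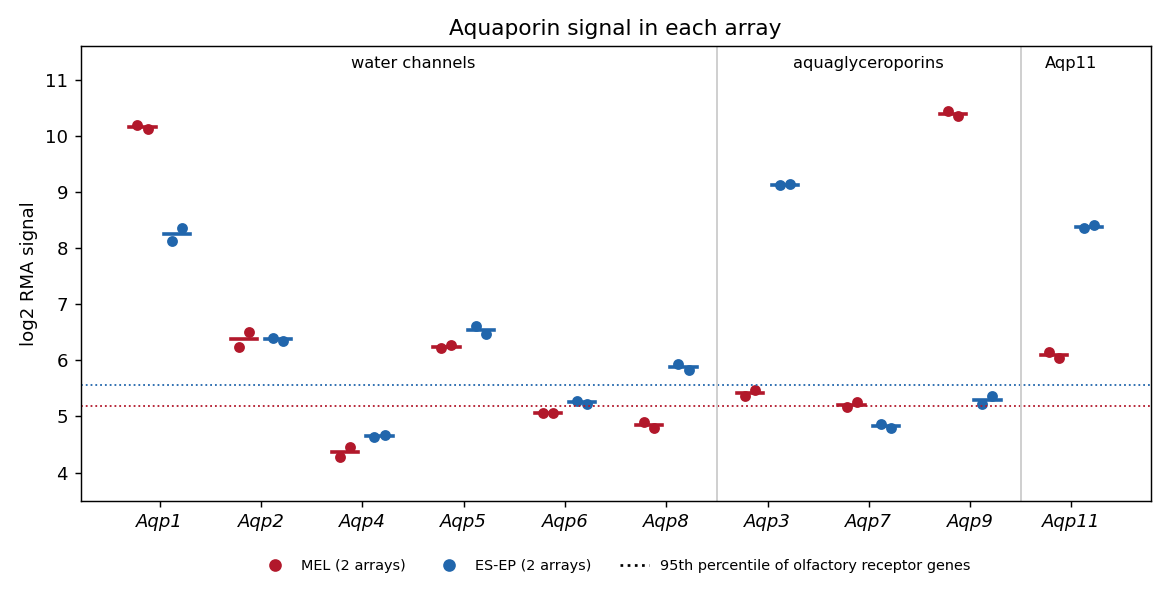
Log2 RMA signal (y axis) of the 10 aquaporins (x axis, grouped by role) in 2 MEL arrays (red, left of each pair) and 2 ES-EP arrays (blue, right). Points are arrays, bars are means, and dotted lines are the olfactory levels of 5.19 in MEL and 5.56 in ES-EP; Aqp9 lies at 10.43 and 10.35 in MEL, against 5.23 and 5.36 in ES-EP.

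Among the classical water channels, Aqp1 (probe set 10538459), the main water channel of red cells, had signals of 10.20 and 10.12 in MEL, against 8.13 and 8.35 in ES-EP. Both MEL arrays lay above both ES-EP arrays by at least 1.77, and both cell types lay well above background. The difference was 1.92 ± 0.09 (SE; limma, adjusted p = 3.3e-08), with a 95% interval of 1.71 to 2.12. Aqp1 ranked 428 of 19938 genes by its difference toward MEL.

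Aqp8 (probe set 10557300), a channel for water, ammonia and hydrogen peroxide known from pancreas, liver and colon, had signals of 4.90 and 4.79 in MEL, against 5.93 and 5.83 in ES-EP. The MEL arrays were at background, and the ES-EP arrays lay above the olfactory level and above both MEL arrays. The difference was -1.04 ± 0.09 (SE; limma, adjusted p = 2.3e-06), and because the MEL signal was at background its size is not exact. It also passed the test when the arrays were rescaled, but then fell short of 2-fold (-0.79 after cyclic loess, -0.85 after quantile normalization and -0.89 after centring on medians).

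The remaining water channels showed small or no differences. Aqp2 (probe set 10426760), the vasopressin-regulated channel of the kidney collecting duct, had signals of 6.24 and 6.51 in MEL, against 6.40 and 6.34 in ES-EP. The groups overlapped, and the difference of 0.00 ± 0.10 (SE) had a 95% interval of -0.22 to 0.22 (limma, adjusted p = 0.982). Aqp5 (probe set 10426767), the channel of salivary and lacrimal glands, had 6.21 and 6.27 in MEL, against 6.61 and 6.46 in ES-EP. It passed the test narrowly (-0.30 ± 0.09, SE; limma, adjusted p = 0.0123), with ES-EP above MEL on every array. It did not pass after cyclic loess (adjusted p = 0.191) or after centring on medians (adjusted p = 0.179), and its 15 alternatives spanned adjusted p values of 0.0064 to 1.

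Signals of Aqp4 and Aqp6 did not reach the olfactory level in MEL or in ES-EP. Aqp4 (probe set 10457614), the water channel of astrocyte end-feet, had 4.28 and 4.46 in MEL, against 4.63 and 4.68 in ES-EP, a difference of -0.29 ± 0.09 (SE; limma, adjusted p = 0.0157). Rescaling the arrays ended that call, with adjusted p = 0.509 after cyclic loess, 0.603 after quantile normalization and 0.198 after centring on medians. Its 13 alternatives spanned adjusted p values of 0.0098 to 1. Aqp6 (probe set 10426773), an intracellular channel of kidney intercalated cells that also passes anions, had 5.07 and 5.06 in MEL, against 5.28 and 5.23 in ES-EP. Its difference of -0.19 ± 0.08 (SE) missed the threshold (limma, adjusted p = 0.056), with a 95% interval of -0.37 to -0.01, and its sign turned after quantile normalization (0.039) and cyclic loess (0.060).

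Among the aquaglyceroporins Aqp9 and Aqp3 differed strongly in opposite directions. Aqp9 (probe set 10594825), the glycerol and urea channel of liver and of mouse red cells, had 10.43 and 10.35 in MEL, against 5.23 and 5.36 in ES-EP. The ES-EP arrays were at background, while both MEL arrays lay at least 4.99 above them. The difference, MEL minus ES-EP, was 5.10 ± 0.09 (SE; limma, adjusted p = 1.8e-11), with a 95% interval of 4.91 to 5.29, and its exact size rests on the background in ES-EP. Aqp9 ranked 13 of 19938 genes by its difference toward MEL.

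Aqp3 (probe set 10512156), a water and glycerol channel of kidney and skin epithelium, had 5.36 and 5.46 in MEL, against 9.12 and 9.14 in ES-EP. The MEL arrays lay just above the olfactory level of 5.19, so that the size of this difference too is set in part by background. It was -3.72 ± 0.08 (SE; limma, adjusted p = 6.6e-11), with a 95% interval of -3.90 to -3.54. Aqp3 ranked 73 by its difference toward ES-EP.

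Aqp7 (probe set 10512145), the channel through which fat cells release glycerol, had 5.16 and 5.25 in MEL, against 4.86 and 4.80 in ES-EP. The MEL mean of 5.21 was at the olfactory level and the ES-EP mean of 4.83 below it. The difference of 0.38 ± 0.08 (SE) passed the test (limma, adjusted p = 0.0024), and it was 0.62 after cyclic loess. It ended as a call under a test against a 1.2-fold difference (adjusted p = 0.238) and Holm's adjustment (adjusted p = 1), and its 14 alternatives spanned adjusted p values of 0.00014 to 1.

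Aqp11 (probe set 10565627), a channel of the endoplasmic reticulum whose loss in mouse gives cystic kidneys, had 6.14 and 6.03 in MEL, against 8.35 and 8.41 in ES-EP. Both cell types lay above background. The difference was -2.29 ± 0.08 (SE; limma, adjusted p = 2.8e-09), with a 95% interval of -2.48 to -2.11, and Aqp11 ranked 203 by its difference toward ES-EP.

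**Figure D2:**
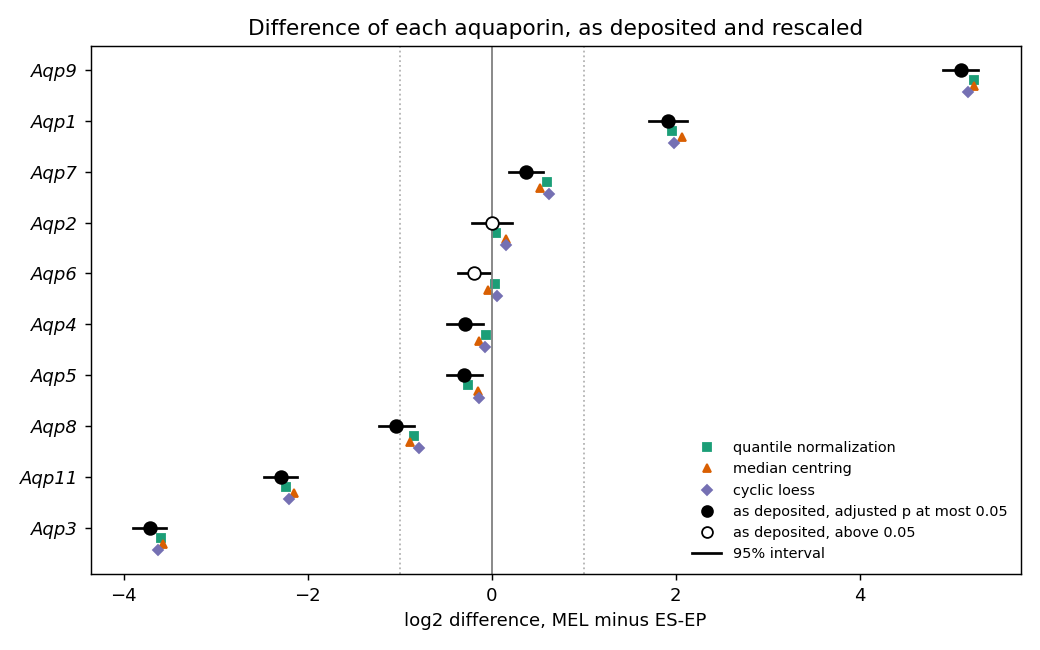
Difference in log2 signal (x axis, MEL minus ES-EP) of each aquaporin (y axis), with 95% intervals. Filled circles passed the limma test, open circles did not, colored marks are 3 rescalings of the arrays, and dotted lines mark 2-fold. The differences run from -3.72 for Aqp3 to 5.10 for Aqp9, and the rescaled marks of Aqp8 fall between -0.89 and -0.79.

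Outside these 10 genes the array held 2 more of the family. Mip, the water channel of the eye lens, had signals of 5.76 and 5.78 in MEL, against 5.50 and 5.54 in ES-EP, where it was at background (0.25 ± 0.08, SE; limma, adjusted p = 0.0171). Aqp12, the pancreatic relative of Aqp11, had 5.88 and 5.76 in MEL, against 6.29 and 6.26 in ES-EP (-0.46 ± 0.08, SE; limma, adjusted p = 8.0e-04). Neither reached 2-fold.

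By position the members lay on 6 chromosomes. Aqp7 and Aqp3 lay near each other on chromosome 4 (0.38 and -3.72), with Nfx1 (0.18 ± 0.08, SE, adjusted p = 0.0834) and Nol6 (-0.66 ± 0.08, SE, adjusted p = 6.7e-05 in limma) as the nearest measured genes on either side. Aqp2, Aqp5 and Aqp6 lay side by side on chromosome 15 (0.00, -0.30 and -0.19), between Faim2 (-0.03) and Racgap1, a mitotic regulator, which was 1.64-fold higher in MEL. The measured genes nearest to Aqp9 on chromosome 9 were Adam10 (-0.15, adjusted p = 0.119 in limma) and Aldh1a2, at background in both cell types (-0.40). Adam10 lay 330429 bases and Aldh1a2 47939 bases from Aqp9, with other genes, not measured here, in between. The measured genes nearest to Aqp1 on chromosome 6 were Mindy4, also at background (0.32), and Ghrhr (-0.25). On chromosome 7 Aqp11 lay next to Clns1a, encoding the chloride current and splicing cofactor pICln, which was 1.99-fold lower in MEL (9.59 and 9.58 in MEL, against 10.59 and 10.57 in ES-EP). Gdpd4, 181696 bases away on the other side of Aqp11, was at background (-0.14). Around Aqp8 on the same chromosome Lcmt1 was 1.39-fold lower in MEL and Zkscan2 was at background (-0.60). Aqp4 on chromosome 18 lay between Kctd1 (-0.15, 237947 bases away) and Chst9 (-0.10, 40790 bases away), both at background.

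**Figure D3:**
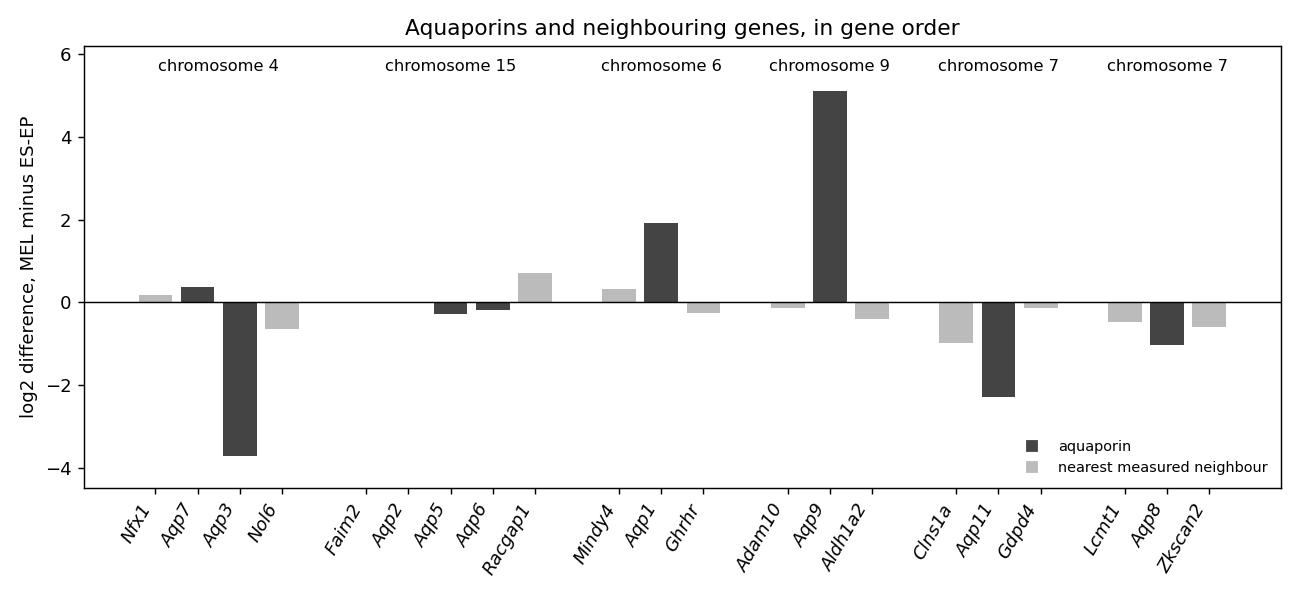
Difference in log2 signal (y axis, MEL minus ES-EP) of 9 aquaporins (dark bars) and their nearest measured neighbours (light bars), in gene order on each chromosome. The nearest measured neighbours of Aqp9 (5.10) and Aqp3 (-3.72) have differences between -0.66 (Nol6) and 0.38 (Aqp7). Nearest measured genes are not always adjacent, and those of Aqp9 are 47939 and 330429 bases away.

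Glycerol that enters through aquaglyceroporins is phosphorylated or, in the other direction, is released from triglyceride. Of 12 measured genes of glycerol and triglyceride handling, 3 were higher in MEL and 7 lower (83.3% called, against 63.8% of all genes, and a median difference of -0.26, against -0.15). Lpl, the lipoprotein lipase, had 4.20 and 4.17 in MEL, against 9.79 and 9.88 in ES-EP, with the MEL arrays at background. Gpd1l, related to glycerol-3-phosphate dehydrogenase, was 4.03-fold lower in MEL. Mgll, which cleaves monoglycerides, was 2.94-fold lower with the MEL signal at background, and Abhd5, the activator of adipose triglyceride lipase, was 2.12-fold lower. The 3 genes higher in MEL act in triglyceride synthesis and were named after their values were seen, Gpam (1.71-fold), Dgat2 (1.54-fold) and Dgat1 (1.38-fold). Gpd2 (0.07, adjusted p = 0.535 in limma) and Lipe (0.17, adjusted p = 0.0902) did not pass. Glycerol kinase was not measured by a probe set of its own name.

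Other channels and transporters of the red cell membrane also differed in both directions. Their list of 9 genes also held the carbonic anhydrase gene Car2, an enzyme gene that was 1.40-fold lower in MEL. In this list 2 genes were higher in MEL and 5 lower (77.8% called, against 63.8% of all genes, and a median of -0.34, against -0.15). Kcnn4, the calcium-gated potassium channel through which red cells lose potassium and water, had 10.47 and 10.39 in MEL, against 8.16 and 8.48 in ES-EP. It was 4.31-fold higher in MEL, the same direction as Aqp1. Slc4a1, the anion exchanger band 3, was 44.3-fold lower in MEL (5.93 and 5.82, against 11.25 and 11.44 in ES-EP). The Rh proteins Rhd and Rhag were 3.08-fold and 1.64-fold lower in MEL. Slc2a1 (0.24, adjusted p = 0.0521 in limma) and Piezo1 (0.15, adjusted p = 0.248) did not pass.

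Cells set their volume with ion and osmolyte transporters, since water follows solutes through aquaporins. Of 17 measured genes of volume regulation, 5 were higher in MEL and 5 lower (58.8% called, against 63.8% of all genes, and a median of 0.01, against -0.15). Lrrc8d, a subunit of the volume-regulated anion channel, was 5.22-fold higher in MEL, with 7.66 and 7.45 in MEL against 5.29 and 5.05 in ES-EP, where it was at background. The inositol transporter Slc5a3 was 2.99-fold higher, the potassium-chloride cotransporter Slc12a7 2.61-fold higher (ES-EP at background) and the sodium-potassium-chloride cotransporter Slc12a2 2.29-fold higher. Wnk4, named after its values were seen, was 2.06-fold lower. Nfat5, the factor that drives genes of the osmotic response, did not pass the test (0.18 ± 0.09, SE; limma, adjusted p = 0.111).

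**Figure D4:**
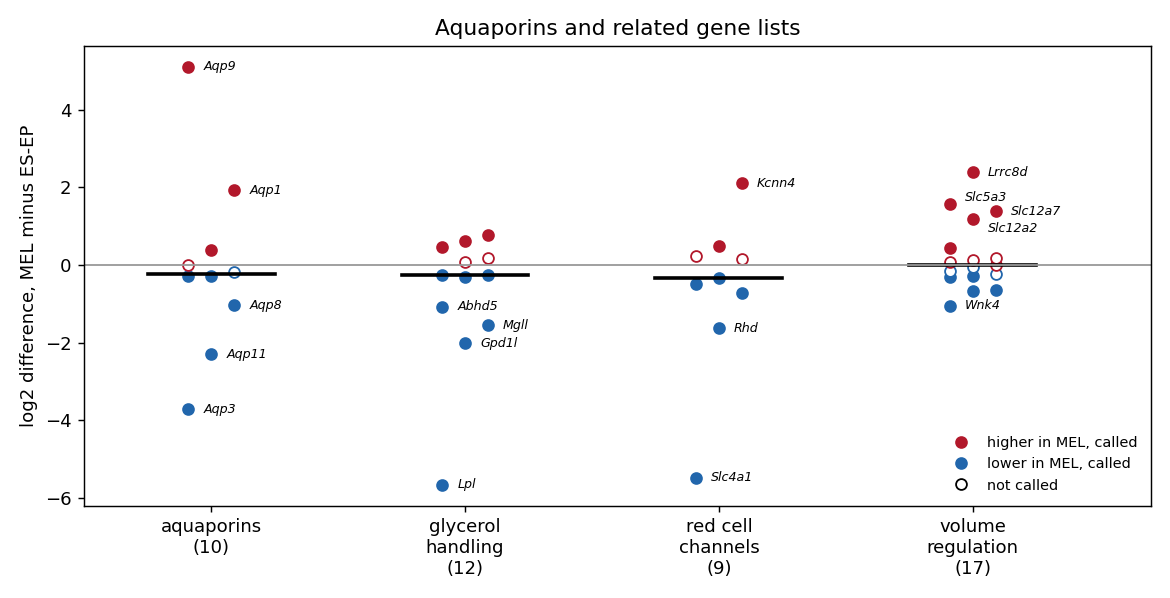
Difference in log2 signal (y axis, MEL minus ES-EP) for the genes measured in each of 4 lists (x axis, number of genes in parentheses), red above 0 and blue below it. Filled points passed the limma test, open points did not, black bars are medians, and called genes of at least 2-fold are named; the bars lie between -0.34 and 0.01, while single genes run from -5.65 to 5.10.

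Markers of cell types were read beside these results. Over all genes 20.5% were called higher in MEL and 43.2% lower, and the marker lists were not retested after the arrays were rescaled. Of 8 measured erythroid markers all were above background in both cell types, with 2 higher in MEL and 5 lower. Lower in MEL were Slc4a1 (44.3-fold), Epb42 (9.32-fold), Alas2 (8.69-fold), Tfrc (1.72-fold) and Klf1 (1.57-fold). Gata1 (2.21-fold) and Nfe2 (1.16-fold) were higher, and Gata1, Nfe2, Tfrc and Klf1 were named after their values were seen. The summed signal of the 8 erythroid markers was 13.62 to 13.69 in MEL, against 14.25 to 14.33 in ES-EP (log2). MEL carries the introduced Gata-1 fusion, and whether it adds to the Gata1 signal, and so to this sum, was not tested. Of 10 mast cell markers 8 were lower in MEL and 0 higher. Their summed signal was 8.75 to 8.83 in MEL, against 12.42 to 12.43 in ES-EP (log2). In ES-EP this sum rested mostly on Ms4a2 (11.05) and Kit (11.03), ahead of Hdc (9.28). The IgE receptor subunit Ms4a2 was at background in MEL, and Kit, the receptor for stem cell factor, was 53.5-fold lower in MEL, while Fcer1a, Cpa3, Mcpt8, Cma1 and Mrgprx1 were at background in both. Of 4 megakaryocyte markers 3 were higher in MEL and 1 lower, with a summed signal of 10.13 to 10.24 in MEL, against 8.14 to 8.17 in ES-EP, and Pf4 was at background in ES-EP. Of 10 macrophage and neutrophil markers 3 were lower in MEL and 0 higher, with a summed signal of 8.40 to 8.46 in MEL and 8.57 to 8.59 in ES-EP, and all but Cd68 and Csf1r were at background in both. Of 5 pluripotency markers 2, and of 10 stromal, epithelial and endothelial markers 7, were lower in MEL and 0 higher, each by less than 2-fold. Only 1 of the 2 and 3 of the 7 lay above background in either cell type. The part of these other programs in the aquaporin differences was not tested.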

How the data were processed

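Signals were deposited by the authors on a log2 scale, 1 column per array, after RMA in GeneSpring GX per the labels; its version is not given in the sources used here. Over 35557 probe sets the medians of the MEL arrays were 5.68 and 5.67, those of the ES-EP arrays 5.81 and 5.84. Duplicates correlated at r = 0.998 across genes, which are not independent. Precision is limited by having 4 arrays, and p-values cover only the spread between cultures.

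Probe sets with 1 symbol in the array's gene table (21789) were used, and those with several (1621) or unnamed here (12147) were not. Differences, MEL minus ES-EP, were tested two-sided with limma 3.58.1 in R 4.3.3 (lmFit, eBayes, no block), and 15 alternatives were run. An exact permutation of 2 against 2 arrays cannot go below p = 0.333. Of these steps only the limma fit was tried on simulated data. The members, lists, olfactory level and motifs were chosen with earlier results of these data known. Named genes were all members, the family's other genes, up to 4 called genes per list with the largest differences and the nearest measured neighbours; others were named after their values were seen. Neighbours, chromosomes and promoters came from RefSeq (GRCm38.p6). Promoters of 9 members were scanned, and figures were drawn with matplotlib 3.10.9.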

Additional observations from a re-analysis of the deposited data

How the results depend on the processing

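Aqp9, Aqp1, Aqp3, Aqp11 and Aqp8 kept their direction and their call under every alternative in which they were tested (15 each, but 14 for Aqp8, too dim for the filter at the median). Their highest adjusted p values were 2.9e-05, 3.7e-04, 3.4e-05, 1.1e-04 and 0.0038. With only genes whose mean signal reached the median, 5 members of 6 tested were called; Aqp9 and Aqp3 reached it only through the cell type in which they were high, so that their calls there support nothing. Holm's adjustment called 5 members, and so did a test against a 1.2-fold difference (5), against 8 as reported. The filter at the median called 7117 of the 9969 genes it tested. Over all 19938 genes Holm's adjustment called 2837 and the test against a 1.2-fold difference 6391, against 12718 as reported. With 1 array left out, the difference ran from 5.033 to 5.165 for Aqp9 and from 1.81 to 2.03 for Aqp1. It ran from -3.77 to -3.67 for Aqp3, from -2.35 to -2.24 for Aqp11 and from -1.09 to -0.98 for Aqp8. In these fits the lone array of a cell type was assumed to vary like the other cell type's arrays. Aqp5 lost its call without MEL replicate A (adjusted p = 0.0876), without MEL replicate B (0.0516) and without ES-EP replicate A (0.0771), and Aqp4 without MEL replicate A (0.141) and without ES-EP replicate B (0.0681). Tested over all probe sets, Aqp4 also lost its call (0.0604). The difference of Aqp2, called in no setting, ran from -0.13 to 0.14 when 1 array was left out (-0.13 without MEL replicate B and -0.027 without ES-EP replicate B), and that of Aqp6 was 0.039 after quantile normalization and 0.060 after cyclic loess. Aqp6 was called among genes from the 25th percentile of mean signal upward (adjusted p = 0.0472). The median of all genes was -0.03 after quantile normalization, -0.01 after centring on medians and 0.00 after cyclic loess. Calls were then 5344 higher and 5974 lower in MEL, 5757 higher and 5644 lower, and 5676 higher and 5460 lower, against 4096 higher and 8622 lower as reported. The causes of these changes were not tested. With the letter A or B as a replicate block 8 members and 12709 genes were called. The letters share no stated batch, and deviations of same-lettered arrays correlated at -0.036.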
